A study of Mus musculus with 12 samples.

Results

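The regions occupied by CTCF in brain, heart and lung of wild-type mouse embryos were compared with each other. The members were the unique regions of the 3 wild-type peak lists, 36034 in brain, 21059 in heart and 44386 in lung. They came from 3 of 12 samples and made up 101479 of the 183882 regions in the 6 lists of the series, whose other lists came from embryos carrying a homozygous R567W change in Ctcf and were not used here. The wild-type embryos had the C57BL/6 background (C57BL/6 N mice, per the study's methods), were collected at E18.5 and had received no agent. Each organ was represented by 1 CTCF ChIP library, so no p-value could be given, and a difference between organs cannot be told apart from a difference between libraries. The labels gave neither the sex of the embryos nor whether tissue had been pooled. The chromatin came from crushed tissue of each organ, so a peak found in few cells and a weak peak found in all cells cannot be told apart.

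CTCF, an architectural protein with an array of zinc fingers, recognises a long, well-conserved core motif and, at part of its sites, an additional upstream motif. It arrests cohesin, the ring complex that extrudes chromatin loops, and so marks loop anchors and the borders of topologically associating domains. Its binding is blocked at some sites by methylation of CpG dinucleotides in the core motif, and many of its sites are known to be shared between cell types.

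Examples of the classes of sites compared are shown by their sequence, read from the GRCm38 (mm10) genome. Each run gives 30 bases upstream of the core motif in lower case and the 19 bases of the core motif in capitals, 5′ to 3′ on the strand of the motif. The first had the best summed rank of fold enrichment among sites called in all organs. The next 5 come from the 2 single-organ sites of highest fold enrichment, for brain, heart and lung in turn, among those with a core motif within 10 kb of a protein-coding start. The other heart site of this rule, in an exon of Soga1, lies in an untranslated region and is not printed. The last had the best summed rank among sites called in heart and lung but not in brain.
Ncs1 intron: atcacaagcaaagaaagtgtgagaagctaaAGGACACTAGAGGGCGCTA
Dpp6 promoter: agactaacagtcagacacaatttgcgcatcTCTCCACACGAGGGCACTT
Gabrg3 intron: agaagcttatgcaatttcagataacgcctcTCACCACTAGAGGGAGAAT
Asph intron: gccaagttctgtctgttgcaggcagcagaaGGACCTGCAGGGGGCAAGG
Gimap8 promoter: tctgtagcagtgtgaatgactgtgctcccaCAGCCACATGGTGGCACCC
Rflnb promoter: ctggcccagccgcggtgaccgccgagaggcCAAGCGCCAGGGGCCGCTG
Lmna intron: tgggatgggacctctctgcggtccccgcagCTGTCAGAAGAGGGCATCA

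The Ncs1 run lay at chr2:31291650-31291698 on the minus strand. The brain runs lay at chr5:27048293-27048341 on the plus strand (Dpp6) and chr7:57384315-57384363 on the minus strand (Gabrg3). The heart run lay at chr4:9653260-9653308 on the minus strand (Asph). The lung runs lay at chr6:48647130-48647178 (Gimap8) and chr11:76027821-76027869 (Rflnb), and the Lmna run at chr3:88488466-88488514, all on the plus strand. A CpG stood in the core of the Ncs1, Dpp6 and Rflnb sites and in the core of none of the other 4.

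The lists differed in depth and in strength of signal before any comparison of positions. Median fold enrichment, the ratio of reads at the peak summit to the local background as the authors' peak caller gave it, came to 13.0 for brain, 9.72 for heart and 11.5 for lung. The median pileup, the number of reads over the summit recovered from the deposited values, was 40 for brain, 29 for heart and 55 for lung. Relative depth was closer, at 8.92, 7.14 and 8.77 reads per kb of effective genome. The lung list also had a higher local background, with a median of 2.38 times its lowest value against 1.18 times in brain and 1.04 times in heart. In the quintile of highest pileup it reached 6.97 times in lung, 1.42 times in brain and 1.12 times in heart, so fold enrichment is lowered at strong lung peaks. The core motif, called within 100 bp of the summit, was found in 87.3% of the peaks for brain, 90.4% for heart and 83.6% for lung, and in 6.28%, 6.45% and 6.18% of windows placed 1100 bp away.

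Most CTCF sites of the heart were also called in the other organs, whereas brain and lung each held many that the shorter heart list lacked. A brain peak overlapped 94.2% of heart peaks (19847 regions; Wilson 95% interval 93.9 to 94.6%), and a lung peak overlapped 97.6% of them (20552 regions; 97.4 to 97.8%). In the other direction, a heart peak overlapped 55.4% of brain peaks (54.8 to 55.9%) and 46.7% of lung peaks (46.2 to 47.1%). Between brain and lung, the share was 86.1% of the brain regions (85.7 to 86.4%) and 70.0% of the lung regions (69.6 to 70.5%). Overlap here means at least 1 shared bp, and these intervals, like all that follow, cover counting error only.

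The lists were then compared at equal length, which leaves the 2 directions of a pair nearly equal by construction. When each list was cut to the 21059 regions of highest −log10 q, a measure of significance against the local background, the 6 shares lay between 80.6 and 85.0%. At this length brain and lung were the closest pair, with 84.8% of brain peaks (84.3 to 85.3%) and 85.0% of lung peaks (84.5 to 85.5%) overlapped. Brain and heart were the most distant, at 80.8% of brain peaks (80.2 to 81.3%) and 80.6% of heart peaks (80.1 to 81.1%). Heart and lung lay between them, with 82.7% of the heart regions (82.2 to 83.2%) and 83.1% of the lung regions (82.6 to 83.6%) overlapped. The order turned with the length: at 15000 regions heart and lung were closest, with 83.9% and 84.2% overlapped against 81.8% and 81.9% for brain and lung. No replicate of any organ was at hand against which to read these gaps of a few percentage points.

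**Figure D1:**
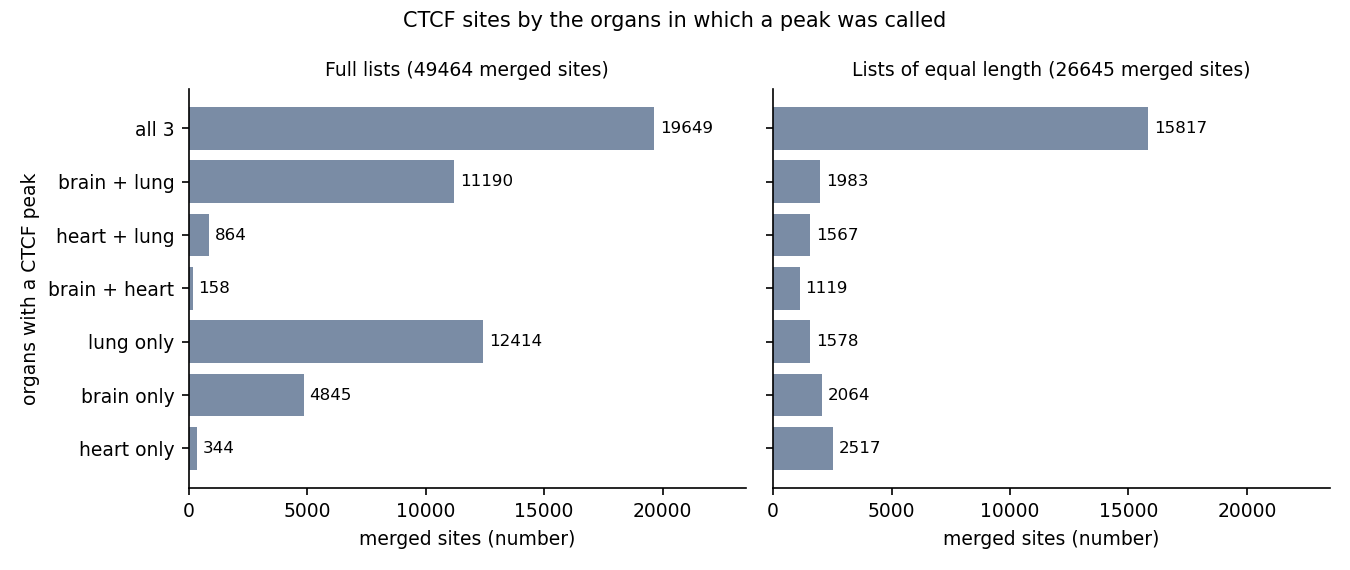
Number of merged sites (horizontal axis) by the organs in which a CTCF peak was called (vertical axis), for the full lists on the left and for lists cut to 21059 regions each on the right. Sites in all 3 organs were the largest class in both, at 19649 of 49464 and 15817 of 26645, and lung-only sites fell from 12414 to 1578 while heart-only sites went from 344 to 2517.

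Merging the regions of the 3 lists gave 49464 sites. Peaks in all 3 organs were present at 19649 sites (39.7%; 39.3 to 40.2%). Brain and lung shared a further 11190 sites without heart (22.6%), heart and lung shared 864 without brain (1.75%), and brain and heart shared 158 without lung (0.319%). Peaks in lung alone marked 12414 sites (25.1%), in brain alone 4845 (9.80%) and in heart alone 344 (0.695%). With lists of equal length there were 26645 sites, of which 15817 (59.4%; 58.8 to 59.95%) had a peak in all 3 organs, and the single-organ classes came to 2064 sites in brain, 2517 in heart and 1578 in lung.

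Most of these equal-length single-organ peaks were overlapped in the full list of another organ. This held for 1657 of the 2064 brain peaks (80.3%; 78.5 to 81.9%), for 2173 of the 2517 heart peaks (86.3%; 84.9 to 87.6%) and for 1159 of the 1578 lung peaks (73.4%; 71.2 to 75.6%). This left 407 brain, 344 heart and 419 lung regions without a peak in the full list of either other organ.

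The stronger a site was in an organ, the more often it was called in the others. Of brain peaks in the lowest quintile of pileup, 9.55% were overlapped in heart and 55.8% in lung. In the highest quintile the shares were 97.3% and 99.96%. Lung peaks ran from 3.06% to 98.4% overlapped in heart and from 21.0% to 99.9% in brain. Heart peaks, fewer in number, ran from 77.4% to 99.9% in brain and from 89.4% to 99.98% in lung. In each of the 6 comparisons the share rose at every step from the lowest to the highest quintile. Ranked by fold enrichment it also rose at every step, but lung peaks then ran only from 6.23% to 80.2% in heart and from 27.3% to 96.1% in brain.

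**Figure D2:**
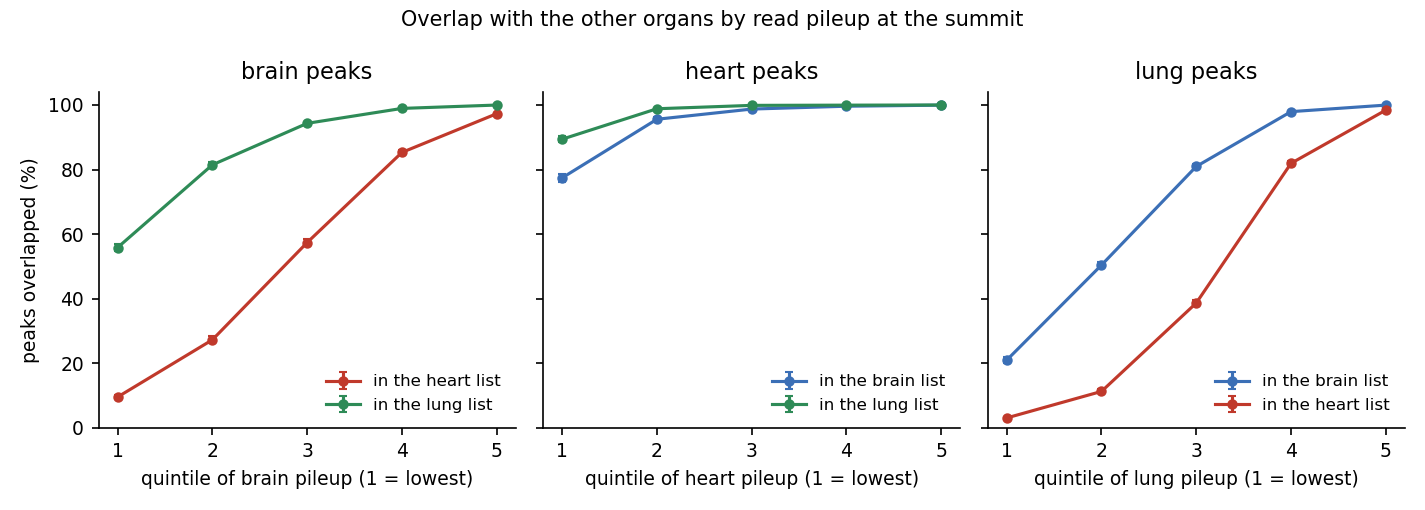
Share of peaks overlapped by a peak of another organ (vertical axis, %) by quintile of pileup in the organ named above each panel (horizontal axis, 1 is lowest); points are shares and bars, mostly smaller than the points, are Wilson 95% intervals. Overlap in the heart list started lowest, at 9.55% for brain peaks and 3.06% for lung peaks, and all 6 lines ended above 97%.

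Ranked by −log10 q, none of the top 1000 peaks of any organ belonged to that organ alone. Among the top 5000 there was 1 such peak in each organ, and among the top 10000 there were 16 in brain, 2 in heart and 8 in lung. Ranked by pileup the last counts were 18, 2 and 3. Ranked by fold enrichment, however, the top 1000 held 22 lung-only peaks and 1 heart-only peak, and the top 10000 held 22 brain-only, 2 heart-only and 319 lung-only peaks. The higher background at strong lung peaks, given above, moved with the lung count, and its part in it was not tested. The strongest regions of a list were often not the strongest of another. When the lists were cut to their 1000 regions of highest −log10 q, 52.9% of the brain regions were overlapped in heart and 57.8% in lung, although 99.9% and 100% of the same regions had a peak in the full heart and lung lists. The corresponding shares of heart and lung regions lay between 53.0 and 57.9%, with 99.7 to 100% found in the full lists. Cut by pileup, the shares at 1000 regions were 57.6% between brain and heart, 64.0% between heart and lung and 69.3% between brain and lung, in either direction.

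**Figure D3:**
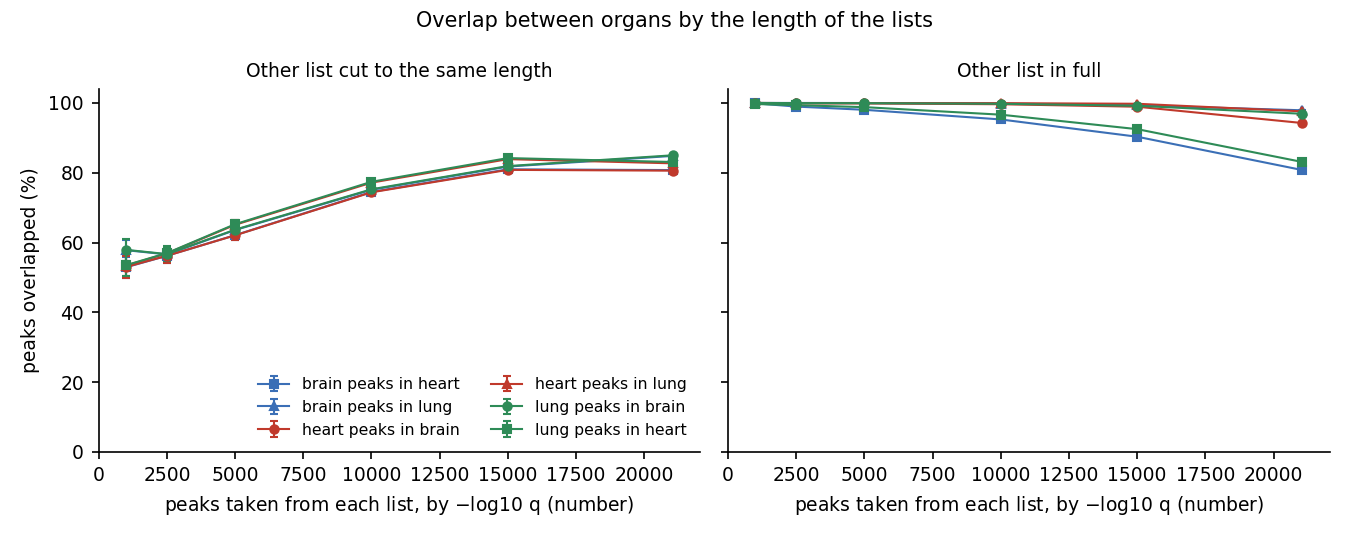
Share of peaks overlapped (vertical axis, %) against the number of peaks taken from each list by −log10 q (horizontal axis), with the other list cut to the same length on the left and in full on the right; colours give the organ of the peaks, symbols the other organ, and bars Wilson 95% intervals. On the left the shares rose from between 52.9 and 57.9% at 1000 peaks to between 80.6 and 85.0% at 21059, while on the right they started at 99.7% or above.

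Where all 3 organs had a peak, its position was alike, and the order of the sites by pileup was similar although pileup itself differed between the libraries. Over the 19649 sites, the median distance between summits was 6 bp for brain and lung, 12 bp for brain and heart and 12 bp for heart and lung, and 94.8 to 98.1% of summits lay within 50 bp of each other. Spearman's rho of pileup across these sites was 0.732 for brain and heart, 0.789 for brain and lung and 0.823 for heart and lung. The median log2 ratio of pileup was -1.27 for heart over brain, 0.99 for lung over brain and 2.27 for lung over heart. The rho of fold enrichment was lower for the pairs with lung, at 0.235 with brain and 0.265 with heart, than for brain and heart, at 0.637. These correlations are descriptions across sites that share their library, base composition and neighbourhood, and the local background in lung, given above, moved with the lower values; its part in them was not tested.

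Sites called in a single organ were weak ones. The median brain pileup was 70 reads at sites of all 3 organs, 25 at sites shared with lung, 21.5 at sites shared with heart and 16 at sites of brain alone. In heart it was 30 reads at sites of all 3 organs, 15 when shared with lung, 14 when shared with brain and 11 in heart alone. In lung it was 129 reads at sites of all 3 organs, 40 when shared with either brain or heart, and 19 in lung alone. Median fold enrichment fell in step, from 21.2 to 5.92 in brain, from 10.1 to 4.02 in heart and from 14.98 to 6.50 in lung between all-organ and single-organ peaks.

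**Figure D4:**
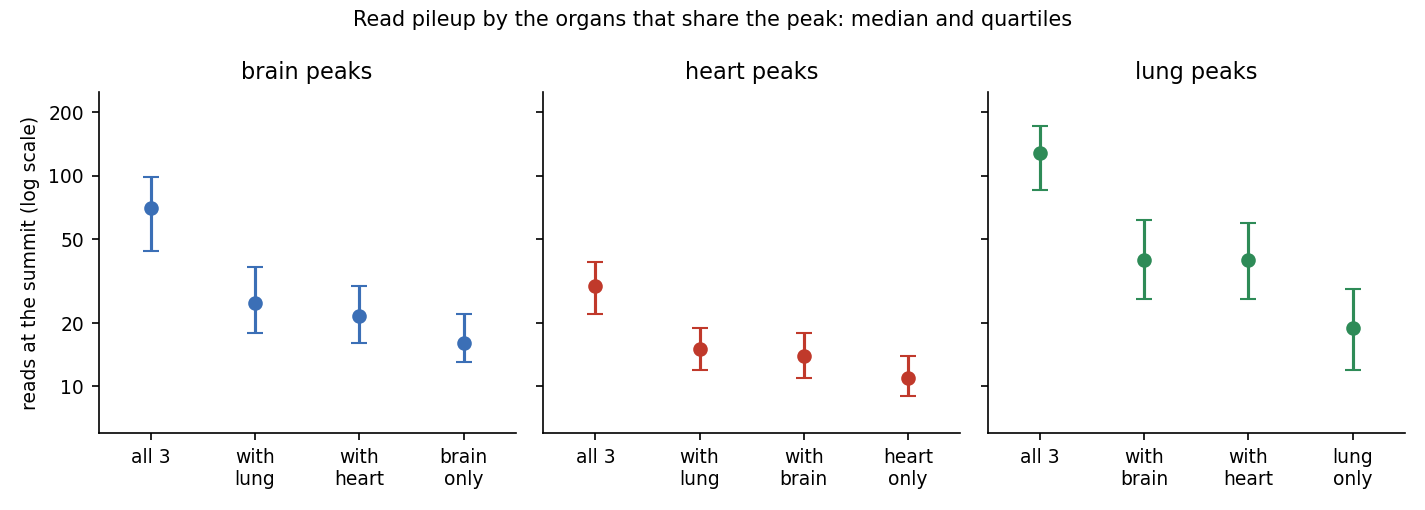
Reads at the peak summit (vertical axis, log scale) for peaks of brain, heart and lung by the organs that share the site (horizontal axis); points are medians and bars run from the lower to the upper quartile. Medians fell from 70 to 16 in brain, from 30 to 11 in heart and from 129 to 19 in lung between sites of all 3 organs and sites of that organ alone.

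Of the features examined, the core motif set the classes furthest apart in the full lists. It was called at 92.8% of the brain peaks in all-organ sites and at 71.2% of the brain-only peaks, a difference of 21.6 percentage points (Newcombe 95% interval 20.3 to 23.0). In heart the shares were 92.2% and 40.4%, a difference of 51.8 (46.5 to 56.8), the latter over 344 peaks. In lung they were 92.7% and 68.5%, a difference of 24.2 (23.3 to 25.1). The motif share also rose with pileup within each list, from 74.2 to 96.3% in brain, from 74.1 to 96.6% in heart and from 58.5 to 96.6% in lung between the outer quintiles. With lists of equal length the differences were 10.7 points in brain, 30.1 in heart and 4.62 in lung. Standardised over deciles of pileup they were 8.08 in brain and 20.5 in heart, and in lung the direction turned, to -5.16. A decile counted by all its peaks if it held any single-organ peak, and no interval was computed. The top 10000 peaks by pileup held 18 brain-only, 2 heart-only and 3 lung-only peaks. The upper deciles thus rest on few peaks, and values standardised over pileup, here and below, cannot settle a direction.

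A CpG anywhere within the core motif was more frequent at all-organ sites. It was present in 47.9% of the core motifs of brain peaks in all-organ sites and in 35.5% of those of brain-only peaks, a difference of 12.3 points (10.6 to 14.1). The shares were 47.7% and 31.7% in heart, a difference of 16.04 (7.87 to 23.2), and 47.9% and 37.5% in lung, a difference of 10.4 (9.12 to 11.6). With lists of equal length the differences were 11.5 points in brain, 7.34 in heart and 8.87 in lung. Deciles of fold enrichment left the sign of the standardised gap unchanged in every organ (brain 21.3, heart 15.4, lung 17.5). Deciles of pileup gave a brain gap of 20.1 points but reversed the sign for heart (-0.87) and lung (-3.68). These standardised values have no interval. Few single-organ peaks fell in the upper deciles of pileup, so the reversals cannot settle a direction. At columns 15 and 16 of the motif, the most frequent place, a CpG stood in 35.9% of the core motifs of brain peaks in all-organ sites and 25.6% of those of brain-only peaks. DNA methylation was not measured in these libraries.

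The upstream motif was searched as TGCAGTNCC on the strand of the core motif, within 30 bp 5′ of it and with up to 2 mismatches. In the full lists at this setting, it differed between the classes by no more than counting error in heart and lung. It stood beside 27.0% of the core motifs of brain peaks in all-organ sites and 25.4% of those of brain-only peaks. Heart gave 27.0% and 20.9%, lung 26.9% and 27.2%. The difference had an interval from 0.0024 to 3.18 points in brain, from -1.36 to 12.1 in heart and from -1.40 to 0.884 in lung, and its sign turned under at least 1 alternative in each organ. In lung it left this interval with at most 1 mismatch (-4.23) and over deciles of fold enrichment (3.90) or pileup (4.49). It stayed inside with lists of equal length (-0.79). In heart it left its interval over deciles of pileup (-5.87) and stayed inside under the other alternatives. For comparison, 12.8% of the core motifs at all-organ sites of the brain list had a match in a mirrored window downstream.

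Single-organ sites of brain and lung often lay in repeats. The summit fell in sequence that the genome marks as repeat at 8.26% of the brain peaks in all-organ sites and 29.1% of the brain-only peaks. In lung the shares were 8.62% and 28.1%, and in heart 8.41% and 14.5%. With lists of equal length, 14.8% of brain-only, 15.6% of heart-only and 21.5% of lung-only peaks lay in repeats, against 6.71, 6.85 and 6.95% of the peaks in all-organ sites. Repeat content moved with strength as well, from 32.2% in the lowest to 4.54% in the highest quintile of brain pileup, from 15.9 to 3.85% in heart and from 27.9 to 5.50% in lung. Standardised over deciles of pileup, the difference between all-organ and single-organ peaks was -0.43 points in brain, -3.43 in heart and -6.41 in lung.

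Promoters, meaning summits within 1 kb of a transcription start site, took up a larger part of the single-organ peaks in the full lists. They held 18.1% of the brain peaks in all-organ sites and 19.8% of the brain-only peaks, a difference of -1.65 points (-2.91 to -0.43). In heart the shares were 18.0% and 30.2%, a difference of -12.2 (-17.3 to -7.56), and in lung 18.2% and 27.0%, a difference of -8.76 (-9.71 to -7.81). The heart difference kept its sign under every alternative tried but was -3.09 when standardised over deciles of fold enrichment and -1.72 over deciles of pileup. In lung it turned to 5.20 with lists of equal length, where 10.9% of lung-only peaks and 16.1% of the peaks in all-organ sites lay in promoters, and to 11.7 when standardised over deciles of pileup. In brain the standardised value was 2.84. In the full lists, promoter peaks carried the core motif less often than others, at 36.3% against 80.3% of lung-only peaks, 48.2% against 76.8% of brain-only peaks and 20.2% against 49.2% of heart-only peaks. At all-organ sites of the lung list these shares were 81.5% and 95.2%. With lists of equal length, the core motif was called at 82.0% of lung-only peaks in promoters and 91.7% of those outside. The shares were then 68.2% and 87.8% for brain-only peaks, and 44.3% and 74.6% for heart-only peaks.

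**Figure D5:**
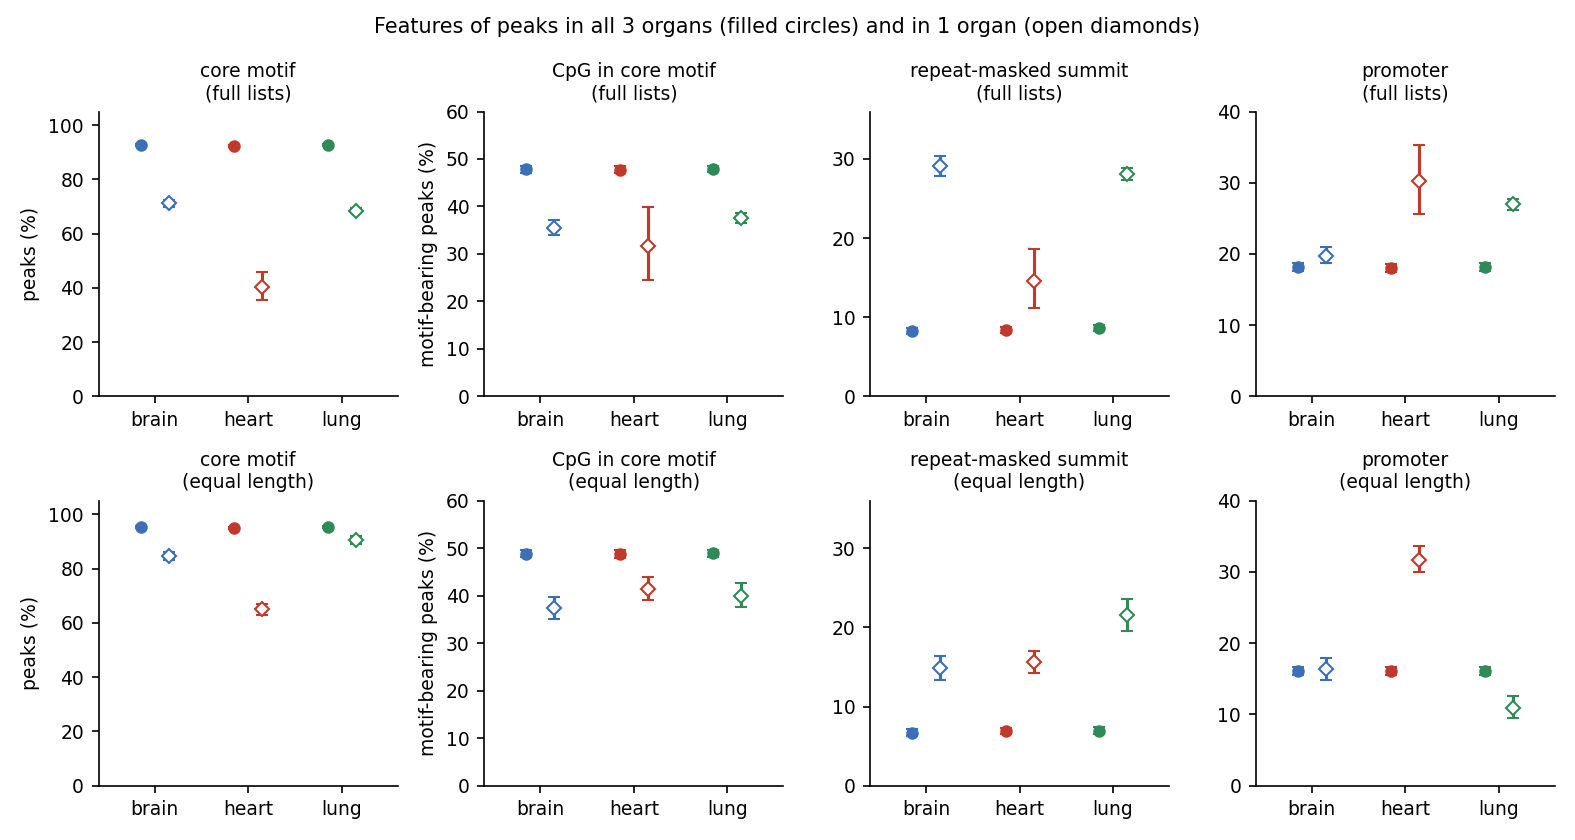
Share of peaks (vertical axes, %; for the CpG, share of peaks with a core motif) with a core motif, a CpG in that motif, a repeat-masked summit or a promoter position, in brain, heart and lung (horizontal axes), for full lists above and lists of equal length below. Filled circles are peaks of all-organ sites, open diamonds single-organ peaks and bars Wilson 95% intervals; the core motif was rarer in every single-organ class, and the promoter share of lung-only peaks was 27.0% in the full lists and 10.9% at equal length.

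Sites on the X chromosome were less often called in heart. It carried 2.43% of all brain peaks (874 regions), 1.64% of heart peaks (345) and 2.58% of lung peaks (1147). A heart peak overlapped 37.1% of brain peaks on the X chromosome (33.9 to 40.3%) and 55.8% of those on autosomes (55.3 to 56.3%), and 29.6% of lung peaks on the X chromosome (27.0 to 32.3%) and 47.1% on autosomes (46.6 to 47.6%). Lung overlapped 89.2% of brain peaks on the X chromosome and 86.0% of those on autosomes. In lists of equal length, heart overlapped 54.6% of brain peaks on the X chromosome (49.996 to 59.1%) and 81.3% on autosomes (80.8 to 81.9%), and 55.1% and 83.7% of lung peaks. Lung then overlapped 76.7% of brain peaks on the X chromosome (72.7 to 80.4%) and 85.0% on autosomes (84.5 to 85.5%), a smaller gap in the same direction.

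Pileup on the X chromosome was lower in all 3 organs. At all-organ sites the median was 44 reads on the X chromosome and 70 on autosomes for brain, 20 and 30 for heart, and 79.5 and 130 for lung. The log2 ratios at these sites, which had to be called in heart, were -0.67, -0.58 and -0.71. Over all peaks of a list the medians were 32 and 41 reads for brain, 19 and 29 for heart, and 45 and 55 for lung, with log2 ratios of -0.36, -0.61 and -0.29. The sex of the embryos was not given, and its part in these values was not tested.

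Neighbouring core motifs along the chromosome pointed in the same direction slightly more often in the longer lists. Their share was 52.0% for brain (51.4 to 52.5%), 47.8% for heart (47.1 to 48.6%) and 51.6% for lung (51.1 to 52.1%), with a median gap of 28.4, 46.6 and 23.9 kb. Restricted to sites of all 3 organs, the share came to 47.6% for brain, 47.4% for heart and 47.6% for lung. Convergent neighbours, the arrangement typical of loop anchors, made up 24.0, 26.1 and 24.2% of pairs, and nearly equal numbers diverged, as the alternation of the 2 arrangements along a chromosome requires.

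Among the strongest sites shared by all organs, the 1 in an intron of Ncs1, a gene for a neuronal calcium sensor, at chr2:31291338-31292077 had a fold enrichment of 103 for brain, 34.4 for heart and 57.9 for lung. Its pileup was 277, 93 and 493 reads. By fold enrichment, though not by pileup, this was the top region of the lung list. A site at chr8:20424557-20425035, 47 bp from the start of the non-coding gene 2610005L07Rik, reached 131, 36.02 and 35.02, and an intergenic site at chr13:119800628-119801419, 10247 bp from the zinc-finger gene Zfp131, reached 108, 34.4 and 35.1. All of these carried a core motif with a CpG.

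Among brain-only sites with a core motif near a protein-coding start, the Dpp6 promoter site, at chr5:27048100-27048518 and 856 bp from the start of this gene for a potassium channel subunit of neurons, had the highest fold enrichment, 28.1, with 75 reads. Next came an intronic site of Gabrg3, which encodes a subunit of the GABA-A receptor, at chr7:57384087-57384568 with 24.6 and 73 reads. The highest value of all brain-only sites, 34.2 with 102 reads, was intergenic at chr7:40942491-40942902, 43416 bp from the nearest protein-coding start, that of Vstm2b. The next, 30.7 with 82 reads on chromosome 18, had no core motif. These 2 ranked 3292 and 4669 in the brain list, and neither heart nor lung had a peak there.

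In heart, the heart-only site of highest fold enrichment lay at chr13:66007763-66008362, 400 bp from the start of the pseudogene Rybp-ps, at 19.01 with 51 reads. The next lay in an intron of Ldb3, which encodes a protein of the Z-disc of striated muscle, at chr14:34574100-34574495, with 11.7 and 31 reads. An intronic site of Asph, whose products include junctin of the sarcoplasmic reticulum, at chr4:9653059-9653443 had 9.51 and 25 reads. A site in an exon of Soga1, 9967 bp from the start of Dsn1, a kinetochore gene, at chr2:157017006-157017254 had 8.50 and 23 reads. Apart from the Rybp-ps site, which ranked 855 in the heart list, these ranked 6830, 10825 and 12803.

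The site at chr17:29020489-29020867, 634 bp from the start of Gm16195 and 11969 bp from that of the splicing factor gene Srsf3, was the lung-only site of highest fold enrichment, 36.2, with 101 reads, and ranked 87 in the lung list. The Gimap8 promoter, of a GTPase gene active in lymphocytes, at chr6:48646837-48647418 had 33.7 with 94 reads and ranked 147. The Rflnb promoter, of a gene for a filamin-binding protein, at chr11:76027667-76027994 had 31.1 with 151 reads. These 3 sites each had a core motif. By reads, the 101 and 94 of the first 2 lay in the fourth quintile of lung pileup, from 77 to 138 reads. The 151 reads of the Rflnb site lay in the highest quintile. The brain-only site of highest fold enrichment, with 102 reads, and the heart-only site of highest fold enrichment, with 51 reads, lay in the highest quintile of their lists, which began at 86 and 41 reads.

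Sites missing from a single organ could be strong in the other pair. An intergenic site at chr12:82469954-82470388, 146451 bp from the start of Rgs6, reached 39.9 with 119 reads in brain and 43.2 with 233 reads in lung, and had no heart peak. The Lmna intron site at chr3:88488271-88488664, in the gene for the nuclear lamins A and C, reached 13.5 with 36 reads in heart and 21.4 with 87 reads in lung and had no brain peak. Of the sites named by rank, it was the only site with its summit in repeat-masked sequence. An intergenic site at chr2:107869354-107869712, 578876 bp from Kcna4, reached 28.1 with 95 reads in brain and 13.5 with 36 reads in heart and had no lung peak.

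CTCF occupancy near genes that mark each organ was examined next, over lists of 30 genes each. Of 21911 protein-coding genes, 24.0% had a promoter peak in the brain list, 14.6% in the heart list and 33.1% in the lung list. Of the 30 brain genes, 7 had a promoter peak in brain, 4 in heart and 6 in lung. Of the 30 heart genes, 4, 6 and 5 had such a peak, and of the 30 lung genes, 5, 5 and 8. An organ's own genes thus had a promoter peak at 23.3% in brain, at 6 of 30 in heart and at 26.7% in lung, shares near the background of all genes.

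Promoter peaks in all 3 lists were found at 13.3% of all genes, and at 4 brain genes, 4 heart genes and 3 lung genes. The brain genes were Eomes and Bcl11b, which encode transcription factors of the developing cortex, Gad1, which encodes a GABA-synthesising enzyme, and Nlgn1, which encodes a synaptic adhesion protein. At Gad1 the brain list gave a fold enrichment of 26.2, heart 12.4 and lung 10.8, with 99, 33 and 97 reads. At Bcl11b it was 20.3, 8.04 and 8.69, with 54, 21 and 46 reads. The heart genes were Gata6, a cardiac transcription factor gene, and Ryr2, Atp2a2 and Ttn, which encode the calcium release channel, the calcium pump and the giant sarcomere protein titin. Ryr2 reached 32.5 for brain, 13.1 for heart and 15.9 for lung, with 119, 36 and 188 reads. Brain thus stood above lung by fold enrichment and below it by reads. The lung genes were Foxa1 and Foxj1, which encode transcription factors of airway epithelium, and Abca3, which encodes a lipid transporter of surfactant-producing cells. The Abca3 promoter reached 40.8 for brain, 10.2 for heart and 18.2 for lung, with 178, 46 and 305 reads.

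Promoter peaks in a single list occurred at 2.74% of all genes for brain, 0.274% for heart and 11.1% for lung. Among the brain genes they were brain-only at Syn1, which encodes a synaptic vesicle protein, with a fold enrichment of 4.20 and 15 reads, and at Rbfox3, which encodes the neuronal marker NeuN, with 9.62 and 25 reads. At Pax6, a transcription factor gene of neural progenitors, the promoter peak was in lung only, with 7.52 and 18 reads. Among the heart genes, Gata4, a cardiac transcription factor gene, had a heart-only peak of 3.73 and 11 reads. Among the lung genes, Foxf1 and Fgfr2, known for lung mesenchyme and for branching of the epithelium, had lung-only peaks of 3.55 with 9 reads and 3.90 with 12 reads, and Sox9, active at the tips of the branching epithelium, had a heart-only peak of 3.66 with 9 reads. All of these pileups were below the median of their list. Kcnq1 and Wnt7b had their promoter peaks in heart and lung, and Foxp2 and Etv5 in brain and lung.

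Within 10 kb of a start site, a peak was found at 49.5% of all genes for brain, 35.4% for heart and 57.7% for lung. Of the 30 brain genes, 26 had such a peak in the brain list, 15 in the heart list and 24 in the lung list. The heart genes had 18, 19 and 19, and the lung genes 20, 17 and 23. The genes of each organ stood above the share of all genes in all 3 lists. At 15 brain genes, 17 heart genes and 17 lung genes all 3 lists had a peak in this window, against 34.0% of all genes. A peak there in a single list occurred at 2.62% of all genes for brain, 0.228% for heart and 9.96% for lung. Among the genes of the 3 organs, only the brain list had it at Syn1, Rbfox3 and Map2, the last a gene for a microtubule protein of dendrites, but also at the heart gene Hand1 and the lung gene Scgb3a2. Only the heart list had it at Actc1, a cardiac actin gene. The lung list alone had it at Napsa, Ager, Bmp4 and Cldn18 among the lung genes, of which Ager and Cldn18 mark alveolar epithelium, but also at Pax6 and the heart gene Myh7.

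With lists of equal length, promoter peaks were at 12.5% of all genes in brain, 14.6% in heart and 11.2% in lung. Of the brain genes 3 had one in brain, 4 in heart and 1 in lung, of the heart genes 4, 6 and 2, and of the lung genes 4, 5 and 4. The heart list held the most promoter peaks at the brain and lung genes, as it did among all genes.

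At genes for CTCF and for cohesin and its regulators, most promoters with a peak in any organ had a peak in all 3. A promoter peak was present at 8 of 14 for brain, 7 for heart and 8 for lung, and at the same 7 in all 3, above the 24.0, 14.6, 33.1 and 13.3% of all genes. These were Ctcf itself, the cohesin subunit genes Smc3, Stag1 and Stag2, Pds5a and Pds5b, which encode proteins that bind the ring and regulate its release, and Esco1, which encodes an acetyltransferase of cohesin. With lists of equal length the 7 remained in each organ. At Stag1 the pileup was 260 reads for brain, 69 for heart and 390 for lung, and at Pds5b it was 195, 45 and 377. At the Ctcf promoter it was 68, 33 and 147. Smc1a had a promoter peak in brain only, with 11 reads, and Rad21 in lung only, with 15 reads.

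The imprinted H19 and Igf2 locus, where CTCF is known to bind the unmethylated copy of the control region upstream of H19, was occupied in every organ. Within 10 kb of the H19 starts, the site at chr7:142580090-142581042 had a fold enrichment of 14.6 for brain, 6.22 for heart and 21.1 for lung, and that at chr7:142581560-142582162 had 11.4, 5.56 and 30.9. The pileup was 43, 16 and 64 reads at the former and 47, 20 and 110 at the latter. Near Igf2, which encodes a fetal growth factor, the sites at chr7:142672091-142672484 and chr7:142675668-142676073 were called in all 3 organs, with 18.9, 6.83 and 13.3 at the former and 21.8, 9.15 and 39.0 at the latter. Their pileup was 71, 21 and 126 reads and 58, 31 and 119 reads, so lung was highest by reads at either site. A weaker site at chr7:142659092-142659556 was called in heart, at 4.76 with 13 reads, and in lung, at 12.5 with 31 reads, but not in brain.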

How the data were processed

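CTCF ChIP-seq peak lists of wild-type brain, heart and lung, 1 library each, were analysed, with groups taken from the labels. Per the study's methods and the submitters' processing notes, the authors used Trim Galore for trimming, Bowtie2 for alignment to joined mm10 and hg38 genomes, since human HEK293T chromatin had been added as a spike-in, and MACS2 at default options for calling peaks on each library from reads of high mapping quality. Spike-in scale factors do not enter the lists, and the control library of each list was not stated. In the deposited lists, fold enrichment is the ratio of summit pileup to local background after adding a pseudocount of 1 to either, and p-values and q-values stand as −log10. Lines sharing a region (37336 in brain, 21618 in heart and 46373 in lung before this step) became 1 region represented by its most enriched summit, taken from the deposited summit offset.

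Summit pileup was recovered by solving fold enrichment and the Poisson p-value for a whole number, which succeeded for 100% of lines. Total read number is unknown, so relative depth was taken from the lowest background. Overlaps used bedtools 2.31.1, genes came from GENCODE M21 and GRCm38 supplied the sequence and its repeat masking. The core motif matrix of 19 columns was learned from 1947 sites of the 2000 brain peaks of highest fold enrichment and called at p of 1e-04 or less against uniform base composition; a consensus served for the upstream motif. Tested on simulated data, 100% of 4899 pileups and 99.9% of 2015 planted core motifs were recovered, and 3.02% of windows without a motif were called. A CpG was scored anywhere in the core.

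Named sites were the 3 sites of all organs with the smallest sum of fold-enrichment ranks, the 2 of highest fold enrichment per single organ, the 2 per organ with a core motif within 10 kb of a protein-coding start, and the best-ranked site per pair, plus sites within 10 kb of H19 and Igf2 and genes with a promoter peak in 1 list. Genes named with peaks in several lists, in the 10 kb window or among those for cohesin were chosen after their values were seen. Gimap8 met both lung rules. The comparison, lists and rules were chosen with earlier results of these data known. Shares carry Wilson and differences Newcombe 95% intervals. Alternatives were other overlaps, lists of equal length, autosomes only, a motif matrix from heart peaks, a −log10 q of at least 5, stricter motif calls, promoters defined by 2 kb and standardised differences over fold-enrichment deciles; standardisation over pileup and all alternatives for repeats were added after seeing the data. Scripts ran in Python 3.11.15 with pandas 2.3.3, numpy 2.4.6, scipy 1.17.1 and matplotlib 3.10.9.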

Additional observations from a re-analysis of the deposited data

Results flagged for a closer look

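The local background, which enters both fold enrichment and −log10 q, set the lung list apart from the other lists. Relative to the lowest value of the list, its median in the quintile of highest pileup was 6.97, against 1.42 in brain and 1.12 in heart. Only 10.0% of lung peaks had the lowest background of their list, against 39.4% in brain and 47.1% in heart.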

How the results depend on the processing

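With 1 library per organ no value has a replicate check, no library could be left out, and intervals cover counting error only. No paired analysis was possible because each group held 1 library and the labels gave no replicate numbers. Weak peaks near the calling threshold limit what a missing overlap can show. Of 106 alternatives tried, 27 kept the value within its interval, 5 kept the count of all-organ sites within 1.5 times (15817 to 19328 sites), 61 moved the value beyond its interval and 13 turned its direction; the cause was not tested. Overlap shares are given in the order brain in heart, brain in lung, heart in brain, heart in lung, lung in brain and lung in heart. They were 52.3, 81.1, 89.5, 91.8, 65.9 and 43.6% when 50% of both regions had to overlap, and 54.0, 84.2, 92.4, 95.3, 68.4 and 45.2% with summits within 100 bp. Each pair was also cut to its shorter list, 21059 regions for pairs with heart and 36034 for brain and lung. The shares were then 80.8, 81.0, 80.6, 82.7, 81.1 and 83.1% by −log10 q and 81.0, 81.5, 80.8, 83.9, 81.5 and 84.3% by pileup. Peaks with −log10 q values from 5 upward gave 56.3, 88.3, 96.3, 98.9, 73.4 and 48.1%. The share of merged sites in all 3 organs was 59.4% at equal length by −log10 q, 60.8% by pileup, 42.2% with a −log10 q of at least 5 and 37.8% with summits within 100 bp.

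Differences between all-organ and single-organ peaks follow in percentage points for brain, heart and lung. Standardised values carry no interval, and the upper deciles of pileup held few single-organ peaks. For the core motif they were 33.8, 62.7 and 34.0 with p of 1e-05 or less, 10.7, 30.1 and 4.62 at equal length, 14.8, 17.7 and 2.52 over deciles of fold enrichment, and 8.08, 20.5 and -5.16 over deciles of pileup. For promoters they were 3.47, -3.09 and 13.8 over fold enrichment and 2.84, -1.72 and 11.7 over pileup, while equal length gave -0.29 in brain and 5.20 in lung. For the upstream motif, at most 1 mismatch gave -3.15 in brain and -4.23 in lung, deciles of fold enrichment -0.98 in brain and 3.90 in lung, and deciles of pileup -5.87 in heart and 4.49 in lung. For the CpG, equal length gave 7.34 in heart and 8.87 in lung, deciles of fold enrichment 21.3 in brain and 17.5 in lung, and deciles of pileup 20.1, -0.87 and -3.68. The repeat difference kept its sign throughout, from -20.9 to -0.43 in brain.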
